A study of Mus musculus with 6 samples.

Results

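Ms4a4a, Ms4a4b, Ms4a4c, Ms4a6b, Ms4a6c, Ms4a6d, Ms4a7 and Ms4a14 are 8 of the 32285 features counted in single nuclei from photothrombotic (PT) lesions of the mouse cortex. UMIs (counts of distinct RNA molecules) of each of the 8 genes were present in the 24144 myeloid nuclei, which were themselves part of 61917 nuclei kept. The genes were chosen by a measured value, that of Ms4a4a in myeloid nuclei of Tgfbr2-cKO mice at 21 days post-injury (dpi), 263 CPM (UMIs of a gene scaled to the same total of UMIs in every library) against 63.6 CPM in Ctrl mice. That difference is therefore given as a description and is used to support nothing else.

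Each of the 6 libraries combined the lesions of 2 mice on a C57BL/6 background, 1 male and 1 female, and every mouse had a PT injury, so no uninjured cortex was measured. The paper describes the tissue as lesions with residual brain parenchyma, whereas its methods say that only lesions were dissected. The study's methods give an age of 7 to 21 weeks. Ctrl mice were WT. ADWA11 mice were WT and received ADWA11, an antibody that blocks integrin αvβ8, an activator of latent TGFβ, at 10 mg/kg on the day of injury and weekly after it. Tgfbr2-cKO mice were Col1a2(creER); Tgfbr2(flox), in which tamoxifen, started before injury and repeated until collection, deletes a TGFβ receptor in cells that use the Col1a2 promoter, chiefly fibroblasts, and not in macrophages. The labels list no treatment for Ctrl mice. For the study as a whole, its methods describe an IgG1 isotype control for ADWA11 and, for conditional knockouts, several kinds of control, among them littermates given tamoxifen that lacked Cre or had 1 flox allele. Which of these the sequenced Ctrl mice were is not given in the sources used here. Each group was collected at 7 and at 21 dpi as 1 library, so no comparison has a replicate library, and every 95% interval covers counting error only. The 2 mice of a library could be told apart by their RNA, and most calls on both mice together are set beside the values in each mouse.

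Nuclei were sorted by DAPI alone and counted by 10x 3′ sequencing, with 64798965 to 140310354 UMIs in a library and a median of 4601.5 to 8222.5 UMIs per nucleus. Between 21 and 61 cell barcodes were shared by a pair of libraries, at most 0.513% of the smaller one. Tgfbr2 itself stood at 319, 247 and 240.4 CPM in fibroblasts of Ctrl, ADWA11 and Tgfbr2-cKO mice at 7 dpi and at 225, 196 and 189.9 CPM at 21 dpi. These 3′ counts need not cover the deleted exons, and they did not set the Tgfbr2-cKO libraries apart from ADWA11.

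Ms4a genes encode small proteins that cross the membrane several times, and the family includes CD20 (Ms4a1), the B cell marker. Ms4a4a is a surface protein of macrophages that associates with the receptor dectin-1 and has been tied to the release of soluble TREM2. Ms4a7 is used as a marker that separates macrophages of the brain's borders and of blood origin from resting microglia. Ms4a4b is known mainly from T cells, where it and Ms4a6b associate with the co-stimulatory receptor GITR (Tnfrsf18), and Ms4a6d associates with Vsig4, a complement receptor of tissue macrophages.

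The 8 genes lie within 304 kb of chromosome 19 in the annotation of the mm10 (GRCm38) build used for counting. From left to right they run Ms4a14 (chr19:11301249-11314454, minus strand), Ms4a7 (chr19:11321039-11336146, minus), Ms4a4a (chr19:11375523-11392790, plus), Ms4a4c (chr19:11404770-11427246, plus), Ms4a4b (chr19:11443553-11467055, plus), Ms4a6c (chr19:11469366-11482192, plus), Ms4a6b (chr19:11516512-11531256, plus) and Ms4a6d (chr19:11586604-11604849, minus). Ms4a6b overlaps the antisense gene Gm19261, Ms4a6c overlaps BE692007 and Ms4a4c overlaps the pseudogene Gm5692, all on the other strand. Transcripts of Ms4a4a, Ms4a7 and Ms4a14 shared no 31-base word with another family member. In contrast, 15.6% of the 31-base words of Ms4a4c and 14.2% of those of Ms4a6c recurred in the family, mostly in Ms4a4b and Ms4a6b, respectively, so reads of those pairs could in part have been lost or exchanged. With words of 90 bases the shared part was at most 2.23%.

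Promoter windows of 250 bases before a RefSeq start (GRCm38.p6, chromosome 19) were available for 7 of the 8 genes, with 2 starts for Ms4a7, and Ms4a6d is named only. Windows are shown for Ms4a14 and Ms4a7 because these genes varied together most closely, and for Ms4a4a because its value led to the choice of the genes. Capitals mark TGANTCA, an AP-1 type motif that reads the same on both strands, and each sequence runs 5′ to 3′ on the gene's strand.
Ms4a14, chr19:11314455-11314704, minus strand: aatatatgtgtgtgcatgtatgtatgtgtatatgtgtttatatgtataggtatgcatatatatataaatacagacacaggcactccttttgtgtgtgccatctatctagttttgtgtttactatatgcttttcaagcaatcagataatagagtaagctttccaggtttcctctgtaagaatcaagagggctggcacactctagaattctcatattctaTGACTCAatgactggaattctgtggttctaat
Ms4a7, second start, chr19:11334696-11334945, minus strand: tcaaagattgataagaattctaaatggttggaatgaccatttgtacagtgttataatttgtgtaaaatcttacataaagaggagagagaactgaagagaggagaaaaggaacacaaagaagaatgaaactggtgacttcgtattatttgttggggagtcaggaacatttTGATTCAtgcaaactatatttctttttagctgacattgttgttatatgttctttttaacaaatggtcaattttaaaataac
Ms4a4a, chr19:11375238-11375487, plus strand: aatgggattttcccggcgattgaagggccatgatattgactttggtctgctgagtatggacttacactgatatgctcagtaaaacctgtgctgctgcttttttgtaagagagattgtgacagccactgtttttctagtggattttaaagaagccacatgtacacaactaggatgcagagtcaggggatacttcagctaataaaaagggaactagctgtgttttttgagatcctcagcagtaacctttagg

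TGANTCA began 32 bases upstream of the start of Ms4a14 and 81 bases upstream of the second start of Ms4a7, and it occurs in 6.75% of 32851 mouse promoter windows of this length. The first Ms4a7 window (chr19:11336147-11336396) and the Ms4a4a window held none of the motifs searched. Besides TGANTCA, the motifs searched on both strands were an ETS type motif, AGGAAGT (in 7.69% of promoters), and the E-box CACGTG (in 6.02%). No 2 motifs overlapped in the windows. CACGTG was in no member window. AGGAAGT was in the windows of Ms4a6c, once, and Ms4a6b, at 2 places, and both windows carried it within the same 30-base run: aagttactgggactttctgatatAGGAAGT, with the motif in capitals. By the annotation used, 106 bases of the Ms4a6b window overlap an untranslated region, so part of it may be transcribed, and the windows of Ms4a4c, Ms4a6b and the second start of Ms4a7 lie inside the gene spans given above. A match is only a description of letters and does not show that a factor binds there.

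The Ms4a4b and Ms4a4c windows are shown because they were 70.3% identical, against 44.7 to 51.5% between the other pairs. Capitals mark their longest shared run of 20 bases.
Ms4a4b, chr19:11443308-11443557, plus strand: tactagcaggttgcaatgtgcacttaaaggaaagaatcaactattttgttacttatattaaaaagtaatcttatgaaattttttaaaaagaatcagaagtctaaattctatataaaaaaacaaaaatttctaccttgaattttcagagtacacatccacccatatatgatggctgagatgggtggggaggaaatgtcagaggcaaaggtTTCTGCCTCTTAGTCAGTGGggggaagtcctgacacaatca
Ms4a4c, chr19:11407411-11407660, plus strand: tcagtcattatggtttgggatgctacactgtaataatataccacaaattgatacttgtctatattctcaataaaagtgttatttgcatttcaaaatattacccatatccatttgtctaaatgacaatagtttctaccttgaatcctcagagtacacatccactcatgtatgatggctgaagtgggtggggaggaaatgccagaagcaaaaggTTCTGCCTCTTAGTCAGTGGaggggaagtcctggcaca

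Myeloid nuclei were split into groups with the Ms4a genes left out of the genes that drove the clustering, and a group was named from marker RNAs alone, so each name stands for "-like". Microglia (4816 nuclei) were raised in markers such as Sall1 and Siglech, border-type macrophages (2296) in Cd163, Mrc1 and Cbr2, lesion macrophages (5535) in Spp1 and related genes, Fabp4 macrophages (5746) in Fabp4 and Cd5l, dendritic cells (1332) in Flt3, and proliferating nuclei (1697) in Top2a. Another 1984 nuclei led by Hpgd and 738 led by Mmp12 met no marker rule and stayed unnamed. Ms4a4a was itself among the 10 leading genes of the border-type group, so its height there is a property of that cluster and no finding.

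Some groups came mostly from 1 library. ADWA11 at 21 dpi supplied 4580 of the Fabp4 macrophages, ADWA11 at 7 dpi supplied 1694 of the Hpgd-led nuclei, and ADWA11 supplied only 35 microglia at 7 dpi and 1 at 21 dpi. This group holds only nuclei raised in markers of resting microglia. The paper reports a dysmature myeloid signature under ADWA11 and counts disease-associated microglia among the ADWA11 nuclei. Whether microglia without these markers lie in other groups here was not tested. In Tgfbr2-cKO mice at 7 dpi microglia made up 67.2% of myeloid nuclei. Levels over all myeloid nuclei therefore mix a gene's level in each group with the share of each group, and values within groups are given beside them. T cells (2048 nuclei in CD8, CD4, regulatory, NK and type 17 or gamma-delta groups) served as the comparison outside the myeloid class. The set named T cells thus includes 614 NK nuclei, which are not T cells. Neural nuclei (14987 neurons, oligodendrocytes, precursors and astrocytes) gave the level in cells that should lack these RNAs. Single nuclei called as doublets (2 nuclei in 1 droplet) were kept in all these sets. They were 11.2% of neural nuclei (7.93 to 18.6% by library, most in ADWA11 at 21 dpi) and 4.71% of myeloid nuclei. The neural level may therefore hold RNA of mixed droplets.

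Ms4a7 was detected in more myeloid nuclei than any other member in each library. It stood at 514, 469 and 197 CPM in Ctrl, ADWA11 and Tgfbr2-cKO mice at 7 dpi and at 439, 417 and 386 CPM at 21 dpi. The Tgfbr2-cKO library at 7 dpi was thus the low one, and the other 5 lay within 386 to 514 CPM. A UMI of Ms4a7 was found in 60.3, 76.9 and 25.6% of myeloid nuclei at 7 dpi and in 63, 70.5 and 58.9% at 21 dpi, and in 41.5, 44.2, 16, 42, 41.3 and 35.9% when every nucleus was thinned to 1500 UMIs. In neural nuclei the shares were 14.2, 14.8, 2.99, 12.3, 11.1 and 7.28% (5.95, 4.78, 0.69, 4.16, 4.14 and 1.84% after thinning), at a median depth of 5642 to 12356 UMIs against 3338 to 6681 in myeloid nuclei. Myeloid shares were above this background in every library.

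**Figure D1:**
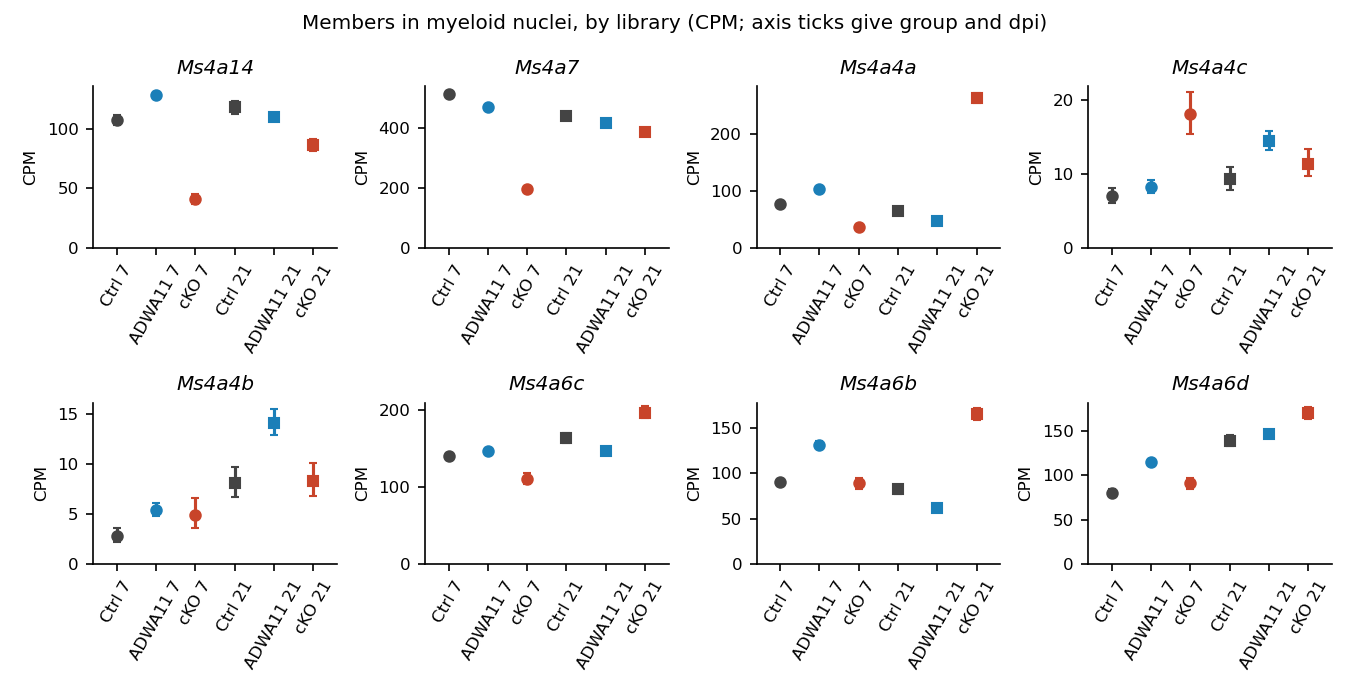
CPM of each of the 8 members in myeloid nuclei (vertical axes) in the 6 libraries (horizontal axes, cKO for Tgfbr2-cKO), with exact Poisson 95% intervals as bars. The Ms4a4a point of Tgfbr2-cKO at 21 dpi, 263 CPM, lies above the other 5 libraries, which span 36.7 to 103 CPM, and the Ms4a7 point of Tgfbr2-cKO at 7 dpi, 197 CPM, lies below the rest.

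Border-type macrophages held the most Ms4a7, from 657 to 1251 CPM (median 713) over the 5 libraries with at least 50 such nuclei, the libraries from which every range by group below is taken. Next came Hpgd-led nuclei (575 to 745 CPM), Fabp4 macrophages (377 to 591), lesion macrophages (255 to 817) and proliferating nuclei (255 to 431). Mmp12-led nuclei (54.9 to 311), microglia (81.3 to 246) and dendritic cells (108 to 169.6) held least. Each group in this order overlapped its neighbour, whereas the highest microglial library, 246 CPM, lay below the lowest library of border-type macrophages. It was only just below the lowest library of lesion macrophages, 255 CPM from the 146 nuclei of ADWA11 at 21 dpi. In T cells Ms4a7 stood at 4.28 to 52.9 CPM, a range like that of neural nuclei (4.33 to 59.1). The type 17 or gamma-delta group of T cells, 63 nuclei in Ctrl mice at 21 dpi, held 119 CPM (71.8 to 186) on 19 UMIs, but its 72 nuclei in Tgfbr2-cKO mice at 21 dpi held 4.2 CPM (0.106 to 23.4) on 1 UMI.

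Ms4a14, the neighbour of Ms4a7 on the same strand, followed a like order at its own scale. Its levels ran from 133 to 204 CPM in border-type macrophages, 124 to 193 in Hpgd-led nuclei, 94.9 to 148 in Fabp4 macrophages and 74.1 to 176 in lesion macrophages. Microglia held 15.1 to 64.9 CPM and dendritic cells 15.4 to 30.2, both below every lesion macrophage library. The groups named before them overlapped their neighbours, and microglia and dendritic cells overlapped each other. Over all myeloid nuclei Ms4a14 stood at 107, 128 and 40.9 CPM at 7 dpi (Ctrl, ADWA11 and Tgfbr2-cKO) and at 118, 109.7 and 86.2 CPM at 21 dpi, so its low library was the same as for Ms4a7. Across 36 points (a sub-cluster in a library, with at least 50 nuclei) Ms4a7 and Ms4a14 had a Pearson r of 0.96 for log2(CPM + 5), the highest of the 28 pairs of members, between points that share libraries and depth.

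Ms4a4a stood at 76.4, 103 and 36.7 CPM in myeloid nuclei of Ctrl, ADWA11 and Tgfbr2-cKO mice at 7 dpi and at 63.6, 46.9 and 263 CPM at 21 dpi. Tgfbr2-cKO mice thus gave both the lowest and the highest library, at 7 and 21 dpi. The share of myeloid nuclei with a Ms4a4a UMI was 19.3, 29.7, 7.29, 14.9, 13.1 and 39.7% in the same order (9.11, 12.9, 3.8, 8.09, 6.74 and 23.1% thinned), against 0.516 to 4.67% of neural nuclei (0.106 to 1.42% thinned). Border-type macrophages held 258 to 771 CPM, only just above Hpgd-led nuclei (91.1 to 249, the highest from 77 Ctrl nuclei at 7 dpi). Fabp4 macrophages (27.9 to 150.5), lesion macrophages (11.6 to 337) and dendritic cells (30.7 to 136) overlapped one another. Proliferating nuclei (20.9 to 22.5) lay below the dendritic range, microglia (10.4 to 65.7) overlapped them, and Mmp12-led nuclei (0 to 8.43) lay below microglia. In fold, lesion macrophages ranged more widely than microglia, border-type or Fabp4 macrophages, and their highest library, Tgfbr2-cKO at 21 dpi, reached into the border-type range.

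Ms4a6b varied with Ms4a4a (r = 0.91 over the 36 points, which include the Tgfbr2-cKO 21 dpi levels behind the choice of the genes, so it is a description only) but, unlike it, was also present in T cells. In myeloid nuclei it stood at 89.8, 131 and 88.6 CPM at 7 dpi and at 82, 61.2 and 165 CPM at 21 dpi in Ctrl, ADWA11 and Tgfbr2-cKO mice. T cells held 335 to 534 CPM and border-type macrophages 251 to 514 CPM, overlapping each other and clear of Hpgd-led nuclei (99.2 to 209). Dendritic cells (102 to 138), Fabp4 macrophages (40.9 to 99), lesion macrophages (26.1 to 172), proliferating nuclei (64.6 to 69.7) and microglia (49.6 to 73.1) followed. Microglial libraries were close to one another and lay above Mmp12-led nuclei (7.02 to 39.2). A UMI of Ms4a6b was found in 20.3 to 43.6% of myeloid nuclei (9.78 to 18.3% thinned), and the level in neural nuclei was 2.14 to 14 CPM.

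**Figure D2:**
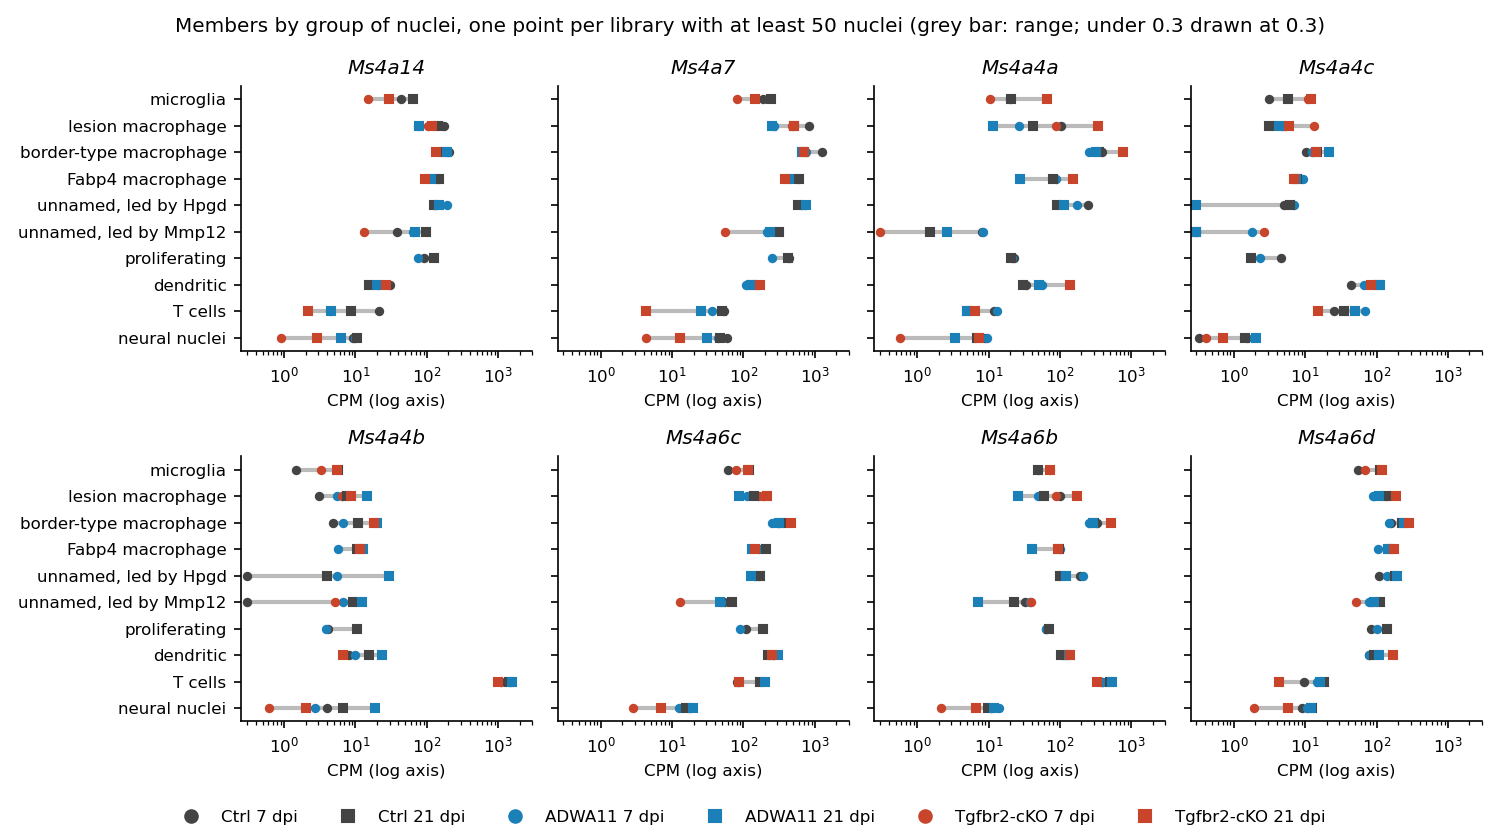
CPM of the 8 members (panels, log horizontal axis, values under 0.3 drawn at 0.3) in each myeloid group, T cells and neural nuclei (vertical axis), with 1 point per library with at least 50 nuclei and a grey bar for their range. Ms4a4b is high only in the T cell set (991 to 1555 CPM), which includes NK nuclei. The dendritic points of Ms4a4c lie at 44.2 to 112 CPM. For the other 6 members the highest single point lies in border-type macrophages or, for Ms4a6b, in T cells. Within a library this order can differ: in ADWA11 at 21 dpi Ms4a7 is 745 CPM in Hpgd-led nuclei and 661 in border-type macrophages.

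Ms4a6c and Ms4a6d were the members with the least spread between libraries over all myeloid nuclei. Ms4a6c stood at 139.9, 147 and 110.5 CPM at 7 dpi and at 164, 147 and 197 CPM at 21 dpi, and Ms4a6d at 80.5, 115 and 90.9 CPM and then 139, 146 and 170.1 CPM. Ms4a6c was highest in border-type macrophages (252 to 457 CPM) and dendritic cells (224 to 303), which overlapped, and the dendritic range lay clear of Hpgd-led nuclei (126 to 168). Lesion macrophages (87 to 212), Fabp4 macrophages (130.0 to 205), proliferating nuclei (89.9 to 185), microglia (61.3 to 119) and T cells (80.3 to 198) overlapped. For Ms4a6d the order was border-type (150.4 to 289), Hpgd-led (109 to 193), Fabp4 (106 to 174), lesion (88.7 to 188), proliferating (82.5 to 139), dendritic (77.3 to 169.6), microglia (55.6 to 118) and Mmp12-led (52.3 to 111), with each neighbour overlapping. T cells, at 4.28 to 18.6 CPM, lay below every myeloid group and near neural nuclei (1.92 to 12.6).

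Ms4a4b was high in the T cell set, which includes NK nuclei, though not in every group of it. It stood at 1105, 1447 and 1640 CPM in T cells of Ctrl, ADWA11 and Tgfbr2-cKO mice at 7 dpi, the last from 25 nuclei, and at 1405, 1555 and 991 CPM at 21 dpi. Pooled over libraries it was highest in the CD8 group (2164 CPM, 95% interval 2085 to 2246), followed by NK (1693) and CD4 (1537), and it was lower in regulatory T cells (365, of which 213 of 260 nuclei came from ADWA11 at 21 dpi) and in the type 17 or gamma-delta group (51.5). ADWA11 at 21 dpi gave 336 of the 514 CD8 nuclei, and the order was not the same in each library: ADWA11 at 7 dpi had 1822 CPM in CD4, 1691 in CD8 and 1566 in NK nuclei, and in Tgfbr2-cKO at 21 dpi CD8 (1511) and NK (1484) had overlapping intervals. Ms4a6b, pooled in the same way, stood at 782 CPM in CD8, 613 in CD4, 427 in regulatory, 337 in NK and 76.6 in type 17 or gamma-delta nuclei. At 7 dpi it was not higher in CD8 than in CD4 nuclei, at 642 against 647 CPM in Ctrl and 448 (350.3 to 564) against 658 (523 to 817) in ADWA11.

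In myeloid nuclei Ms4a4b was scarce, at 2.83, 5.42 and 4.95 CPM at 7 dpi and at 8.11, 14.1 and 8.33 CPM at 21 dpi. The same RNA stood at 3.94, 2.73, 0.608, 6.59, 18.7 and 2.04 CPM in neural nuclei and at 0.704, 1.51, 3.78, 4.18, 13.1 and 3.34 CPM in fibroblasts. Summed UMIs of the 9 T cell markers in myeloid nuclei were 94.9, 110.1, 38.6, 120.2, 243 and 47.6 CPM, with each marker present in every library. ADWA11 at 21 dpi, which had the most T cells (1065), was the highest library on all 4 of these measures, and the part of free T cell RNA or mixed droplets in the Ms4a4b values was not tested. The myeloid level was above the neural one in 4 libraries, most in fold in Tgfbr2-cKO at 7 dpi (4.95 against 0.608 CPM), and below it in Ctrl at 7 dpi and ADWA11 at 21 dpi.

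Ms4a4c was highest in dendritic cells, at 44.2 to 112 CPM in the 5 libraries with at least 50 of them, with T cells at 15 to 69.2 CPM overlapping them. Dendritic cells held 562 of its 1489 myeloid UMIs, so most came from the other, larger groups. Border-type macrophages (10.3 to 21.7), microglia (3.15 to 12), Fabp4 macrophages (6.95 to 9.2) and lesion macrophages (3.16 to 13.5) held little, yet above neural nuclei (0.328 to 2.08). Over all myeloid nuclei it stood at 6.98, 8.27 and 18.1 CPM at 7 dpi and at 9.29, 14.5 and 11.4 CPM at 21 dpi. Its highest library was thus Tgfbr2-cKO at 7 dpi, where 45 dendritic nuclei held 395 CPM (57 UMIs).

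At 7 dpi, myeloid nuclei of Tgfbr2-cKO mice held less Ms4a7, Ms4a14 and Ms4a4a and more Ms4a4c than those of Ctrl mice. A member was called where its CPM differed at least 2-fold (1 on the log2 scale), the 95% interval of the ratio left out 0 and both libraries together held at least 10 UMIs. By this rule 4 of 8 members were called (16.2% of 17253 features were), and the median log2 ratio of the members was −0.18 against 0.07 over all features. That median turned to 0.23 when the shares of sub-clusters were held at those of Ctrl, and to 0.38 with finer sub-clusters. Ms4a14 was lower, at −1.39 on the log2 scale (95% interval −1.55 to −1.23), with 40.9 against 107 CPM. Ms4a7 was lower, at −1.38 (−1.46 to −1.31), with 197 against 514 CPM, and Ms4a4a was lower, at −1.06 (−1.23 to −0.89). Ms4a4c, whose CPM was highest in dendritic cells above, was higher by 1.38 (1.06 to 1.69), on 161 against 180 UMIs.

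The other 4 members were not called at 7 dpi, with log2 ratios of 0.81 for Ms4a4b (0.23 to 1.37), 0.17 for Ms4a6d, −0.02 for Ms4a6b and −0.34 for Ms4a6c. Microglia, the group low in Ms4a7, were 67.2% of the Tgfbr2-cKO myeloid nuclei and 38.8% of the Ctrl ones. The Tgfbr2-cKO library also held 7755 neural nuclei among 10594 kept, against 879 among 8294 in Ctrl. The part of this different tissue make-up was not tested. When the shares of sub-clusters were held at those of Ctrl, the ratio of Ms4a7 was −0.80, that of Ms4a14 −0.81 and that of Ms4a4a −0.33, so no call remained for these 3, and Ms4a4c stood at 2.23. Ms4a4a moved to 0.10 with finer sub-clusters. Neural nuclei of this Tgfbr2-cKO library also held less Ms4a7 (4.33 against 59.1 CPM), and in its myeloid nuclei the 5 fibroblast markers summed to 37 CPM against 569 in Ctrl, the 9 T cell markers to 38.6 against 94.9 and the 6 neuron markers to 261 against 12.7. Each of these markers had a UMI in both libraries, and their part in the ratios was not tested.

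Within microglia, 4 of 8 members were called (14.4% of features). Ms4a7 was lower, at −1.23 (−1.38 to −1.09), with 81.3 against 191 CPM, and Ms4a14 was lower, at −1.52 (−1.86 to −1.18), with 15.1 against 43.3 CPM. Ms4a4c was 11.1 against 3.15 CPM, a ratio of 1.82 (1.19 to 2.48), and Ms4a4b, at 3.31 against 1.48 CPM on 19 against 15 UMIs, gave 1.16. By mouse, Ms4a14 was called in both (−1.46 in the female, −1.50 in the male), but Ms4a7 (−1.50 and −0.73) and Ms4a4c (2.64 and 0.86) in the female alone and Ms4a4b in neither. Microglial Ms4a4a was 10.4 against 20 CPM. In lesion macrophages 2 of 8 were called (12.8% of features), Ms4a4c (1.35, 0.64 to 2.03) and Ms4a4b (1.07), whereas Ms4a7 (−0.76) and Ms4a14 (−0.75) were lower without reaching 2-fold. Ms4a4c was called there in the male alone (2.28, against 0.48 in the female), and Ms4a4b in neither mouse (1.33 in the female, −0.46 in the male). Border-type macrophages of Tgfbr2-cKO mice numbered 49, and none of 7 members tested there was called (6.53% of features). In 45 dendritic nuclei 3 of 8 were called, all higher (7.58% of features): Ms4a4c (3.16), Ms4a4b (2.36) and Ms4a6b (1.40). Each mouse alone had too few dendritic nuclei for a ratio. In 77 Mmp12-led nuclei 3 of 5 members tested were called, all lower (9.52%), with a median of −1.56. Of 7 members tested in 45 proliferating nuclei, 1 was called higher and 1 lower (6.44%). Of 6 members tested in the 25 T cells of this library, Ms4a4c was called, at 1.98 on 7 against 13 UMIs (10.6% of features).

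**Figure D3:**
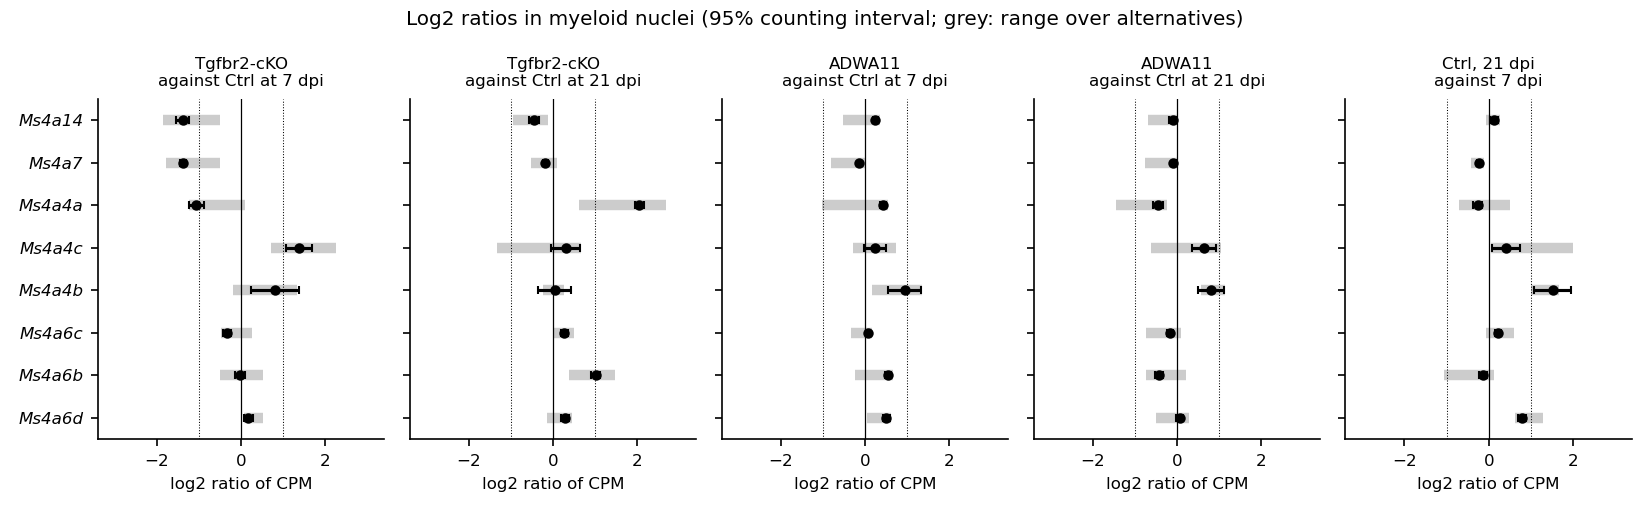
Log2 ratio of CPM (horizontal axis) of each member (vertical axis) in myeloid nuclei for the 5 comparisons (panels), with exact 95% intervals as bars, the range over the alternative settings in grey and dotted lines at 2-fold. In Tgfbr2-cKO against Ctrl mice Ms4a4a lies at −1.06 at 7 dpi and at 2.05 at 21 dpi, and Ms4a7 lies at −1.38 and −0.19.

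At 21 dpi, the difference that led to the choice of these genes was a Ms4a4a level 2.05 higher on the log2 scale in myeloid nuclei of Tgfbr2-cKO mice (95% interval 1.94 to 2.15), on 3377 against 918 UMIs. Ms4a6b was the other member called, at 1.01 (0.91 to 1.11), so 2 of 8 were called (11.8% of 17111 features), with a median of 0.28 against 0.02 over all features. The Ms4a6b ratio fell under 2-fold with TMM scaling (0.98) and with sub-cluster shares held at those of Ctrl (0.93). The median turned negative when nuclei with a UMI of a T cell, B cell, neutrophil or fibroblast marker were left out. Because this contrast chose the members, these counts are given without a reading. In all myeloid nuclei at 21 dpi the 5 fibroblast markers summed to 49.8 CPM in Tgfbr2-cKO and 930.0 CPM in Ctrl mice, the 9 T cell markers to 47.6 and 120.2 CPM and the 6 neuron markers to 81 and 10.1 CPM. Each of these markers had a UMI in both libraries, and their part in the ratios was not tested. The remaining members stood between −0.45 (Ms4a14) and 0.30 (Ms4a4c), and Ms4a7, at −0.19, was slightly lower.

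With both mice of a library combined, Ms4a4a was also called within lesion macrophages, microglia, border-type macrophages and dendritic cells, but not within Fabp4 macrophages. In lesion macrophages its level was 337 CPM in Tgfbr2-cKO and 42.1 in Ctrl mice, a ratio of 3.0 (2.81 to 3.20), and the share of nuclei with a UMI was 53.6 against 12% (31.6 against 6.1% thinned). Microglia held 65.7 against 20.8 CPM, a ratio of 1.66 (1.28 to 2.05), and border-type macrophages 771 against 351 CPM, a ratio of 1.13 (0.96 to 1.31). Dendritic cells gave 136 against 30.7 CPM (2.14, 1.36 to 2.99), with Ms4a4a the 1 member of 8 called there (8.4% of features). It was called in both mice (2.32 in the female, 1.30 in the male). Fabp4 macrophages, with 62 nuclei in Tgfbr2-cKO mice, gave 150.5 against 80.5 CPM with both mice combined. That ratio of 0.90 (0.46 to 1.33) did not reach 2-fold. Each mouse alone was past 2-fold there, on few nuclei. The female gave 1.55 (0.97 to 2.09, 286 against 98 CPM, 21 against 230 nuclei). The male gave 1.43 (0.47 to 2.44, 106 against 39.2 CPM, 33 against 84 nuclei). The part of this unequal mix of the 2 mice in the combined ratio was not tested. T cells, at 6.42 against 4.97 CPM, were near the level of neural nuclei (7.35 and 6.96). With sub-cluster shares held at those of Ctrl the myeloid ratio was 1.96.

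Ms4a6b followed in lesion macrophages, where it stood at 172 against 59.5 CPM (1.53, 1.35 to 1.71), so 2 of 8 members were called there (10.7% of features). In border-type macrophages Ms4a6b was 514 against 302 CPM and was not called, leaving Ms4a4a alone of 8 (9.27% of features). In microglia 3 of 8 were called (8.55% of features): Ms4a4a, Ms4a4c at 12 against 5.7 CPM (1.08, 0.31 to 1.90), and Ms4a14, which was lower, at −1.12 (−1.44 to −0.80), with 29.8 against 64.9 CPM. By mouse, Ms4a4c was called in the female alone (1.19, against 0.90 in the male) and Ms4a14 in the male alone (−0.85 and −1.24). Microglial Ms4a7 was 143 against 246 CPM. T cells went the other way for Ms4a4c, which was lower, at −1.22 (−2.26 to −0.24) on 14 against 28 UMIs and called in the male alone (−3.71, −9.15 to −0.90, on 1 against 10 UMIs, and −1.17 in the female). There 3 of 7 members tested were called, each lower (9.65% of features), the others being Ms4a6d (−2.12) and Ms4a7 (−3.54). Both RNAs stood near the level of neural nuclei in T cells, as given above, and the part of free RNA was not tested. Both were called in the female, and the male had too few UMIs. Ms4a4b in T cells was 991 against 1405 CPM. Of 6 members tested in the 46 proliferating nuclei of Tgfbr2-cKO mice, 2 were called, both higher (15.2% of features). In 33 Hpgd-led nuclei 1 of 6 was called, higher (6.06%).

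**Figure D4:**
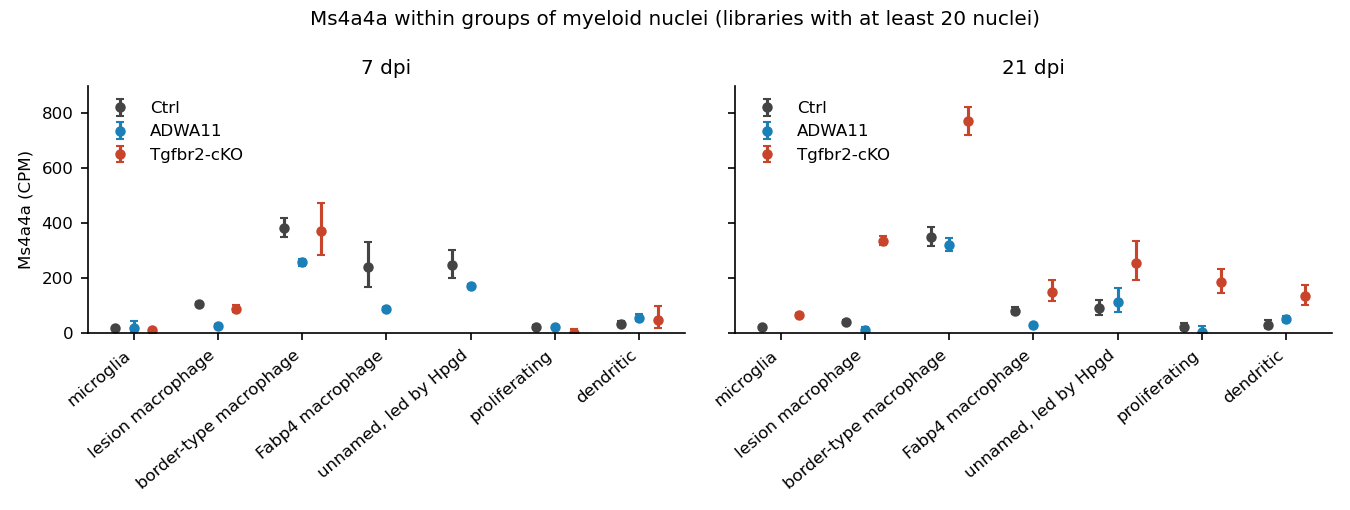
CPM of Ms4a4a (vertical axis) in groups of myeloid nuclei (horizontal axis) at 7 dpi (left) and 21 dpi (right), with 1 point per library with at least 20 nuclei, coloured by Ctrl, ADWA11 and Tgfbr2-cKO, and exact Poisson 95% intervals as bars. At 21 dpi the Tgfbr2-cKO point is the highest in each group plotted, among them border-type macrophages (771 CPM), lesion macrophages (337), microglia (65.7) and dendritic cells (136).

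Female and male nuclei could be told apart by Xist and Y-linked UMIs, which splits each library into its 2 mice and leaves 13.9 to 24% of myeloid nuclei unassigned. Ms4a4a differed between the 2 Tgfbr2-cKO mice at 21 dpi: myeloid nuclei of the female held 429 CPM and those of the male 85.6 CPM, a log2 ratio of 2.32 (2.18 to 2.47). In the other 5 libraries the female level was 71.9, 97.7, 37.1, 67.2 and 46.1 CPM and the male level 81.5, 113, 34.6, 56 and 47.6 CPM (Ctrl, ADWA11 and Tgfbr2-cKO at 7 dpi, then Ctrl and ADWA11 at 21 dpi), with log2 ratios of −0.21 to 0.26. Over all myeloid nuclei the Tgfbr2-cKO female at 21 dpi was therefore the mouse that stood apart for Ms4a4a, and sex, the single mouse and its lesion cannot be told apart. The 2 mice also differed in make-up. Microglia were 275 of 1032 female and 411 of 858 male myeloid nuclei, and lesion macrophages were 532 and 283. The part of this make-up in the values by mouse was not tested. The mice of the Tgfbr2-cKO library at 7 dpi differed in Ms4a7, the member called between them, with 135 CPM in the female and 277 CPM in the male (−1.04, −1.19 to −0.88), so the level of 197 CPM given for that library lies between 2 unequal mice. Both were below the Ctrl mouse of their sex, at 467 and 563 CPM.

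In the Tgfbr2-cKO library at 21 dpi, 2 of 8 members were called between the mice (6.19% of features, against 2.01, 2.64, 2.75, 2.23 and 2.75% in the other 5 libraries in the order above). The second was Ms4a6b, at 237 against 87.4 CPM (1.44, 1.29 to 1.60). Ms4a6c was 251 against 143 CPM, Ms4a14 109.9 against 63.5 CPM and Ms4a7 466 against 306 CPM, so most members were higher in the female, whereas Ms4a4c, at −0.51, was lower. The Ms4a4a difference was present in lesion macrophages (458 against 129 CPM), microglia (136 against 24.4) and border-type macrophages (1142 against 209.9), but in dendritic cells the levels were 133 and 130.0 CPM, a log2 ratio of 0.04 with an interval of −0.83 to 0.89.

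Against the Ctrl mouse of the same sex at 21 dpi, myeloid Ms4a4a was higher by 2.68 (2.54 to 2.81) in the female and by 0.61 (0.38 to 0.85) in the male. Over all myeloid nuclei the call thus rests on the female, with 13.3 and 8.6% of features called in the female and male comparisons. These 2 ratios also mix group shares: microglia were 375 of 1700 female and 224 of 902 male myeloid nuclei in Ctrl mice. In Tgfbr2-cKO mice they were 275 of 1032 and 411 of 858. In lesion macrophages both mice were past 2-fold, at 3.30 and 1.99, as in dendritic cells (2.32 and 1.30) and the few Fabp4 macrophages (1.55 and 1.43). In microglia the values were 2.68 and 0.39 (−0.37 to 1.20). In border-type macrophages the female was higher by 1.78 (1.55 to 2.01) and the male lower, at −0.89 (−1.32 to −0.47). Ms4a6b gave 1.41 in the female and 0.38 in the male over all myeloid nuclei. At 7 dpi the Tgfbr2-cKO values ran the same way in both mice, with Ms4a7 at −1.79 and −1.02 and Ms4a14 at −1.61 and −1.08 (15.5 and 12% of features called), and Ms4a4a at −0.96 and −1.23. Ms4a4c, at 0.70 in the female and 1.59 in the male, was called in the male alone, and Ms4a4a, just under 2-fold in the female, likewise.

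Over myeloid nuclei, lesion, border-type and Fabp4 macrophages, microglia, dendritic cells and T cells, 46 ratios of members were called with both mice combined. Of the 35 for which each mouse had enough nuclei and UMIs, 12 were called in both mice, 21 in 1 mouse and 2 in neither. Myeloid nuclei contain the groups other than T cells, so these ratios overlap, and they include the contrast that chose the genes. The same tally was not made over all features, so it is given without a reading.

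**Figure D5:**
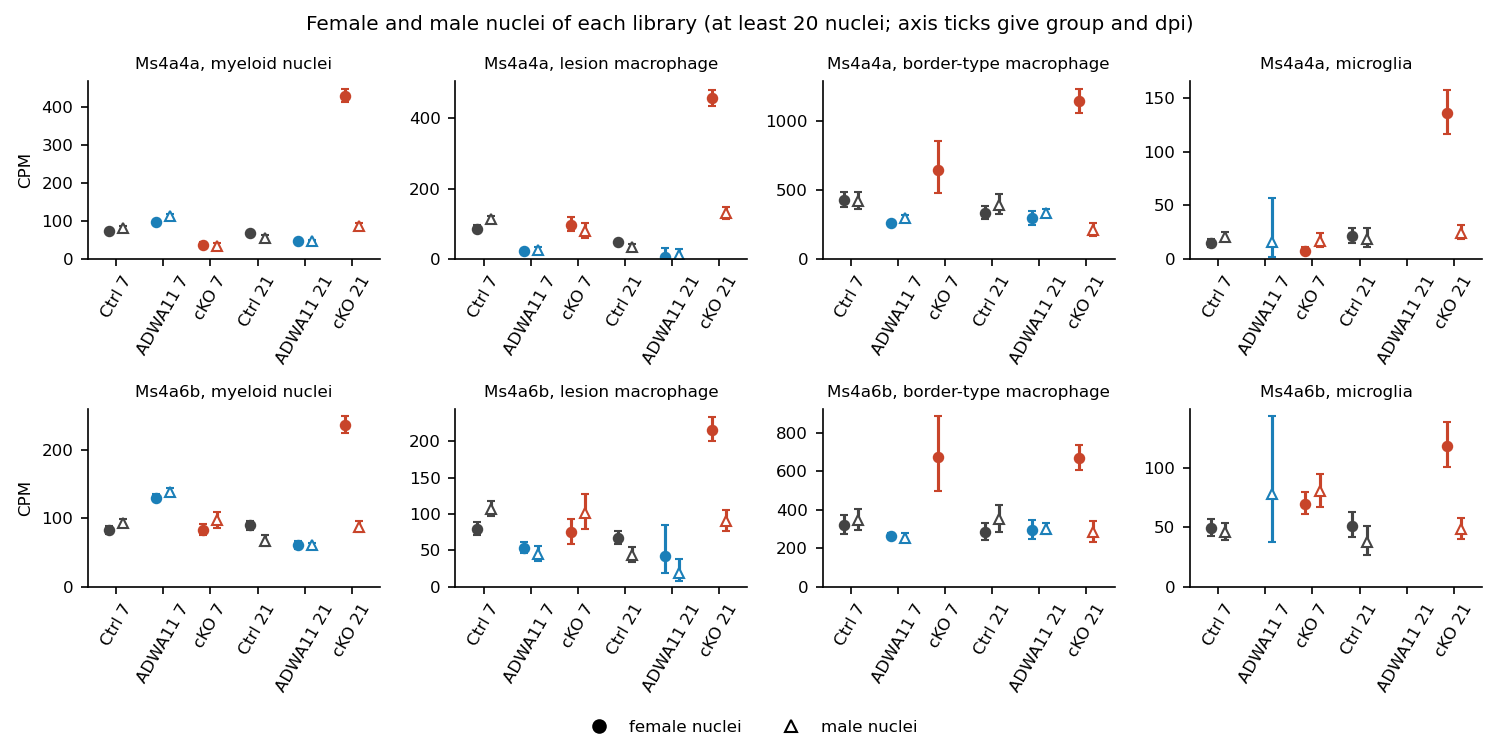
CPM of Ms4a4a (top) and Ms4a6b (bottom) on the vertical axes in female nuclei (filled circles) and male nuclei (open triangles) of each library (horizontal axes, cKO for Tgfbr2-cKO), for myeloid nuclei, lesion macrophages, border-type macrophages and microglia, with exact Poisson 95% intervals. In myeloid nuclei the female and male points of Ms4a4a lie close together in 5 libraries and at 429 and 85.6 CPM in Tgfbr2-cKO at 21 dpi.

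In ADWA11 mice no member was past 2-fold over all myeloid nuclei at 7 dpi (0 of 8, against 12% of 18394 features), although the groups that made up those nuclei differed widely. The log2 ratios to Ctrl were 0.94 for Ms4a4b (5.42 against 2.83 CPM), 0.55 for Ms4a6b, 0.51 for Ms4a6d, 0.44 for Ms4a4a (103 against 76.4 CPM), 0.25 for Ms4a14, 0.24 for Ms4a4c, 0.07 for Ms4a6c and −0.13 for Ms4a7, with a median of 0.34 against 0.03 over all features. This comparison uses the same Ctrl library as the Tgfbr2-cKO one. In these myeloid nuclei the 5 fibroblast markers summed to 308 CPM in ADWA11 and 569 CPM in Ctrl mice, the 5 neutrophil markers to 172 and 370.4 CPM and the 5 B cell markers to 127 and 59 CPM, and their part in the ratios was not tested. With sub-cluster shares held at those of Ctrl, the median was −0.28 and Ms4a4a stood at −1.01. The female and the male mouse alone had no member called either (10.6 and 11% of features), with Ms4a4a at 0.44 and 0.47.

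Within lesion macrophages of ADWA11 mice at 7 dpi, 3 of 8 members were called, all lower (11.4% of features). Ms4a4a was lower, at −1.96 (−2.20 to −1.72), with 27.1 against 105 CPM, Ms4a7 was lower, at −1.61 (−1.69 to −1.53), with 268 against 817 CPM, and Ms4a14 was lower, at −1.24 (−1.40 to −1.09), with 74.1 against 176 CPM. Each of these 3 was called in both mice. Hpgd-led nuclei, 28.4% of the ADWA11 myeloid nuclei against 1.79% in Ctrl, held 171 CPM of Ms4a4a, 670.0 of Ms4a7 and 193 of Ms4a14 in ADWA11 mice, and 249, 724 and 129 CPM in the 77 Ctrl nuclei. Border-type macrophages had 258 against 384 CPM of Ms4a4a and 764 against 1251 CPM of Ms4a7, with 0 of 8 called (6.46% of features). In microglia, of which ADWA11 mice had 35, 0 of 8 were called (4.68%). T cells gave a higher Ms4a4c (69.2 against 25.5 CPM, 1.44) and a lower Ms4a14 (−2.29), 2 of 8 called (6.87%), with Ms4a4c called in the female alone (3.09, 1.10 to 6.20, on 27 against 2 UMIs, and 1.84 in the male). Ms4a14 was scarce in T cells, at 6.17 CPM over all libraries, and neither mouse alone had enough UMIs of it. The part of free RNA was not tested.

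By 21 dpi, again 0 of 8 members were called in myeloid nuclei of ADWA11 mice (14.6% of 17852 features), with a median of −0.09 against −0.07 over all features, and of −0.70 with sub-cluster shares held at those of Ctrl. Fibroblast markers summed to 481 against 930.0 CPM and T cell markers to 243 against 120.2 CPM, and their part was not tested. Ms4a4b (0.80, 0.51 to 1.11) and Ms4a4c (0.64, 0.37 to 0.93) were above Ctrl, Ms4a4a (−0.44) and Ms4a6b (−0.42) below it. Fabp4 macrophages made up 74.6% of these nuclei against 11.3% in Ctrl, and within that group Ms4a4a was 27.9 against 80.5 CPM, a ratio of −1.53 (−1.78 to −1.26), and Ms4a6b 40.9 against 97.4 CPM, a ratio of −1.25 (−1.48 to −1.02), 2 of 8 called (6.73% of features). Both were called in the female alone, with Ms4a4a at −1.81 in the female and −0.49 (−1.20 to 0.33) in the male and Ms4a6b at −1.55 and −0.56 (−1.14 to 0.09). Lesion macrophages, 146 nuclei in ADWA11 mice, gave the same 2 genes as lower, Ms4a4a (11.6 against 42.1 CPM, −1.86, −3.09 to −0.86) and Ms4a6b (26.1 against 59.5 CPM, −1.19, −1.96 to −0.51), 2 of 8 called (11.6% of features). Ms4a6b was called there in the male alone (−0.65 in the female, −1.20 in the male). Neither border-type macrophages (6.19% of features) nor T cells (8.28%) had a member called. Of the mice taken alone, the female had no member called over all myeloid nuclei (11.9% of features), and the male had Ms4a4b, at 1.01 (0.44 to 1.63, 13.3% of features).

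The Ctrl mice alone gave the change with time after injury. From 7 to 21 dpi 1 of 8 members was called in myeloid nuclei (13.4% of 17430 features), Ms4a4b at 1.52 (1.08 to 1.96), with summed T cell markers in the same nuclei at 94.9 and then 120.2 CPM. Plasma cell markers there summed to 5.59 and then 116 CPM and fibroblast markers to 569 and 930.0 CPM. Neutrophil markers summed to 370.4 and 259 CPM and B cell markers to 59 and 45.5 CPM. Their part in the ratios was not tested. Ms4a4b was also the member called in the female (1.43, 12.8% of features) and in the male mice (1.15, 11.3%). Ms4a6d was higher by 0.79 (0.70 to 0.88), from 80.5 to 139 CPM, and within microglia it was 55.6 and then 112 CPM (1.01), called together with Ms4a4b (2 of 8, 12.9% of features). Ms4a6d was called there in the male alone (1.04, against 0.83), and Ms4a4b in the female alone (2.02, against 1.04). In lesion macrophages Ms4a4a was lower, at −1.32, from 105 to 42.1 CPM, and Ms4a4b was higher by 1.29, 2 of 8 called (12%). Neither was called in both mice: Ms4a4a gave −0.88 in the female and −1.78 in the male, and Ms4a4b 1.48 and 0.40. Border-type macrophages had no member called (8.61%), with Ms4a4a at 384 and 351 CPM, and in T cells Ms4a6c was higher by 1.08, 1 of 8 (6.84%). In dendritic cells (254 and 155 nuclei) Ms4a4c was higher by 1.26, from 44.2 to 106 CPM, 1 of 8 called (9.72%). By mouse it was called in the male alone (2.00, against 0.84 in the female). Fabp4 macrophages, with 23 nuclei at 7 dpi, had 2 of 8 called (5.61%), both lower: Ms4a4a (−1.57) and Ms4a4c (−3.25).

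Of 14 further family members listed, 13 were in the files and 5 had enough UMIs in myeloid nuclei. Myeloid ratios of these genes, and of the partners below, were taken over all myeloid nuclei only, not within groups or by mouse. The part of the different make-up of groups in them was not tested. Neither Tgfbr2-cKO comparison had a call among them (16.2 and 11.8% of features at 7 and 21 dpi), and ADWA11 had 2 at each time (12 and 14.6%). Ms4a8a was higher in ADWA11 than in Ctrl mice, at 3.05 against 0.815 CPM at 7 dpi (1.91) and 6.5 against 2.49 CPM at 21 dpi (1.38), while Ms4a1, the B cell gene, gave −1.26 and 1.08. From 7 to 21 dpi in Ctrl mice 4 of the 5 were called, each higher (10.4% of features were called higher): Ms4a4d (1.80), Ms4a8a (1.61), Tmem176b (1.45, from 15 to 40.8 CPM) and Tmem176a (1.14).

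Among 10 partners in the files, Vsig4 was called over all myeloid nuclei in 4 of the 5 comparisons, in both directions. Its level was 3.49 CPM in Ctrl and 13.2 CPM in ADWA11 mice at 7 dpi (1.92), and 8.25, 17.3 and 3.97 CPM in Ctrl, ADWA11 and Tgfbr2-cKO mice at 21 dpi (1.07 and −1.05), so in Ctrl mice it was also higher at 21 than at 7 dpi (1.24, 0.83 to 1.65). The partners called were 0 of 10 in Tgfbr2-cKO mice at 7 dpi (16.2% of features) and 1 at 21 dpi (11.8%), 1 and 3 in ADWA11 mice (12 and 14.6%) and 1 with time (13.4%), and Trem2 stood at 0.34 in Tgfbr2-cKO mice at 7 dpi. ADWA11 at 21 dpi also gave Apoe, a lipid carrier, at −1.11 and Tnfrsf18 at 1.63 on 44 against 6 UMIs.

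Genes outside the family with the pattern most like a member's were named by Pearson r of log2(CPM + 5) over the 36 points, among 13837 genes. For Ms4a4a they were Ap1b1 (0.86), Sgsh (0.85) and Rnf130 (0.84), and Ap1b1 (0.82) was also among the 3 for Ms4a6b, with Serinc3 (0.85) and Eps15 (0.83). Ms4a7 was most like Slc26a11 (0.92), Sorbs3 (0.91) and Arhgap19 (0.88), and Ms4a14 most like Arhgap19 (0.92), Sorbs3 (0.90) and Pdgfc (0.89), so 2 of the 3 genes were shared by this pair. Ms4a4c had Tap1 (0.92), Stxbp6 (0.91) and Rnase6 (0.91), Ms4a6c had Rapgef2 (0.90), and Ms4a6d had Ankhd1 and Mfsd1 (both 0.84). Ms4a4b, scarce in these nuclei, had Drg1 at 0.81. Lowest of the member pairs was Ms4a4c with Ms4a14, at −0.43.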

How the data were processed

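Per the file headers and the study's methods, the deposited gene-by-barcode counts of 3′ UMIs came from Cell Ranger 7.2.0 (the labels list 7.1.0) on mm10, with filtered barcodes and no normalisation by the authors. Of 67360 barcodes, the lowest and highest 2.5% of UMIs and genes and the highest 2.5% of mitochondrial share were dropped within each library, leaving 61917. Doublets were called from simulated pairs of nuclei, and clusters with over 50% called doublets were left out. Clusters were made with Seurat 5.3.0 and sctransform 0.4.2 in R 4.3.3 (3000 variable genes without the Ms4a genes, 30 principal components, resolution 0.5, and 0.25 within myeloid nuclei) and named where at least 3 listed markers were found in at least 5% of nuclei and at 2 times the median over clusters. This naming rule was revised after clusters were seen. Neutrophils (263 nuclei) and plasma cells (91) were left out of the myeloid class, and unnamed T cell clusters out of the T cells.

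UMIs were summed per group and library and divided by non-mitochondrial UMIs (CPM). With 1 library per group no test was run. The 2 mice of a library were told apart only by their own RNA, so their values stand side by side without a test. CPM carry exact Poisson and shares Clopper-Pearson 95% intervals, and log2 ratios an exact conditional binomial interval. A library with no UMI is limited by a floor of 3 counts. The members, lists and comparisons were chosen with earlier results of these data known. Named genes are the 8 members, the listed further family members and partners, and, for each member, the 3 genes of highest r among those with at least 200 UMIs. Promoter sequences are RefSeq's. Python 3.11.15, numpy 2.4.6, pandas 2.3.3 and scipy 1.17.1 were used, and edgeR 4.0.16 gave TMM factors for an alternative. The calculation of ratios and intervals was checked on simulated independent Poisson counts. Such counts hold no variation between nuclei or mice, so the check does not cover it. Ms4a20 and Clec7a were not analysed here.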

Additional observations from a re-analysis of the deposited data

Results flagged for a closer look

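Some results had opposite directions at the 2 times or in 2 kinds of nuclei, and in each of them the difference was not tested. Myeloid Ms4a4a in Tgfbr2-cKO against Ctrl mice had a log2 ratio of −1.06 at 7 dpi and 2.05 at 21 dpi, the latter being the value that led to the choice of the genes. Ms4a4c at 21 dpi in the same comparison was 1.08 in microglia and −1.22 in T cells, on 14 against 28 UMIs in the T cells.

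The female and the male mouse, 1 each per library, gave ratios of opposite sign, each with a counting interval that left out 0 and with at least 50 nuclei of each mouse, for 7 results. In Tgfbr2-cKO against Ctrl at 21 dpi these were Ms4a4a in border-type macrophages (1.78 in the female, −0.89 in the male), Ms4a6c in the same group (0.61 and −0.53), Ms4a7 over myeloid nuclei (0.10 and −0.53) and Ms4a7 in lesion macrophages (0.18 and −0.23). In ADWA11 against Ctrl they were Ms4a6d over myeloid nuclei (−0.27 and 0.29) and in Fabp4 macrophages (−0.41 and 0.47) at 21 dpi and Ms4a4c in dendritic cells at 7 dpi (−1.20 and 1.78). The difference between the mice was not tested in any of them. Other ratios also differed in sign, with an interval that held 0 or with fewer nuclei.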

How the results depend on the processing

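By replicate number, no paired analysis was possible because each group had 1 library and the groups share fewer than 2 numbers. Ratios between mice of the same sex are given as values, without a test. Every alternative below changes the log2 ratio of myeloid nuclei. Holding sub-cluster shares at those of Ctrl moved the median of the members from −0.18 to 0.23 (Tgfbr2-cKO, 7 dpi), from 0.34 to −0.28 (ADWA11, 7 dpi), from −0.09 to −0.70 (ADWA11, 21 dpi) and from 0.18 to 0.03 (Ctrl with time). With sub-clusters cut at resolution 0.5, chosen after seeing the data, the same medians were 0.38, −0.15, −0.38 and 0.05, and Ms4a4a of Tgfbr2-cKO at 7 dpi was 0.10. Leaving out nuclei with a UMI of a T cell, B cell, neutrophil or fibroblast marker kept only 2.59 to 25.6% of myeloid nuclei and gave medians of −0.43 and −0.16 (Tgfbr2-cKO, 7 and 21 dpi, the latter from 0.28), 0.13 and −0.30 (ADWA11) and 0.55 (Ctrl with time). TMM scaling gave 0.01 for ADWA11 at 21 dpi. Male nuclei alone gave −0.01 there and −0.02 for Ctrl with time, and female nuclei 0.32 for the latter. The Ms4a4a ratio of Tgfbr2-cKO at 21 dpi was 2.68 in female nuclei, 0.61 in male nuclei, 1.83 without the marker-bearing nuclei and 1.87 as the mean CPM per nucleus, and in male border-type macrophages it was −0.89. The cause was not tested in any of these. In all, 48 of 65 values of the medians stayed within the counting interval, 10 moved and 7 changed sign. For single members 323 of 480 stayed within it, 156 moved and 1 changed a called sign. Within groups only 27 of the calls, those with more nuclei and UMIs, were followed: 58 of 94 values stayed, 35 moved and 1 changed sign. All 48 shares of nuclei with a UMI changed on thinning to 1500 UMIs, since detection depends on depth.

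One library per group is the main limit: counting intervals hold no variation between mice, and the split by sex shows that 2 mice of a library can differ by more than these intervals. Depth limits Ms4a4b and Ms4a4c in macrophages, which rest on few UMIs, and groups of under 50 nuclei.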

Other observations

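Ms4a4d, a further family member between Ms4a6b and Ms4a6d on the chromosome, was chosen for mention after its values were seen. In fibroblasts it stood at 0.88, 1.91 and 6.14 CPM in Ctrl, ADWA11 and Tgfbr2-cKO mice at 7 dpi and at 2.07, 4.6 and 18.1 CPM at 21 dpi. The Tgfbr2-cKO library was the highest at both times, with log2 ratios to Ctrl of 2.80 (95% interval 1.61 to 3.97, on 13 against 15 UMIs) and 3.13 (2.70 to 3.56, on 152 against 67 UMIs), and ADWA11 gave 1.12 (0.27 to 2.05) and 1.15 (0.70 to 1.61). Past the same rule were 10.1 and 15% of features in fibroblasts of Tgfbr2-cKO mice and 9.28 and 7.81% in those of ADWA11 mice. A UMI was found in 8.65% of the 902 Tgfbr2-cKO fibroblasts and 1.27% of the 4266 Ctrl fibroblasts at 21 dpi, at a median of 8158 and 7080 UMIs per nucleus, against 0.341% (0.156 to 0.647) and 0.225% (0.0614 to 0.576) of neural nuclei, at 7955 and 5642 UMIs. Neural nuclei held 0 to 0.366 CPM over the 6 libraries. By mouse, the Tgfbr2-cKO ratio at 21 dpi was 3.93 (3.32 to 4.58) in the female and 2.51 (1.76 to 3.30) in the male, and at 7 dpi, on 5 UMIs in each Tgfbr2-cKO mouse, 5.29 (2.13 to 10.86) and 1.58 (−0.26 to 3.16). ADWA11 gave 1.89 and 0.65 at 7 dpi and 0.77 and 1.38 at 21 dpi, and was called in the male at 21 dpi alone. Fibroblasts numbered 310 in Tgfbr2-cKO and 1879 in Ctrl mice at 7 dpi and 902 and 4266 at 21 dpi, and the part of a different mix of fibroblast states was not tested. In myeloid nuclei Ms4a4d was 1.79 against 2.84 CPM at 21 dpi, without a call.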
